A study of Mus musculus with 24 samples.

Results

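Wounds dressed with medium from M1-polarised macrophages (group CM1) were compared with wounds dressed with medium from M2c-polarised macrophages (group CMC), across all genes. The comparison takes every library that the labels put in either group, 4 CM1 and 5 CMC libraries, 9 of the 24 in the series. All 24 libraries come from dorsal wounds of male db/db mice on the C57BLKS/J strain, which carry the Lepr (db/db) genotype, so the controls are obese and diabetic as well. Each mouse received 6 mm punch wounds through the full skin thickness at 16 weeks of age, and an alginate bandage was laid on the wound at once and renewed on day 3. Tissue was taken on day 10, at an age of 17.5 weeks. CM1 and CMC bandages carried conditioned medium of primary macrophages, and the 6 control libraries (group Ctrl) come from wounds under a control bandage. How the macrophages were polarised is not stated in the labels. The labels also do not say whether libraries of a group come from separate animals, so a p-value measures the spread between these libraries.

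Macrophages clear debris and bacteria from a wound and release signals that act on fibroblasts, vessels and keratinocytes. M1 is the name for cells activated towards inflammation, which make cytokines such as TNF and IL-1β and nitric oxide. M2c is the name for deactivated cells, usually obtained with IL-10 or glucocorticoid, which clear dead cells and carry receptors such as CD163 and MERTK. In diabetic wounds the inflammatory phase lasts long, and the medium of either cell type reaches the tissue only as secreted products. The RNA measured here is that of the wound, so no gene in it checks which medium a wound received.

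The libraries held 8746185 to 11958892 counts in CM1 and 8561677 to 11632421 in CMC, and 18978 genes had enough counts to be tested. Each of the 9 libraries differed from the others, with Pearson's r of log2 CPM (counts scaled to a common library size) between 0.970 and 0.983 across genes over the 36 pairs. The first 2 principal components of the 9 libraries, with 22.2% and 17.1% of the variance, did not separate CM1 from CMC. CM1 3, CM1 4 and CMC 2 each stood apart in a group of genes, so many of the values that turned or moved much without one of them are given both ways. The numbers only name libraries.

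No single gene was called different between CM1 and CMC wounds, which does not show that none differed. Over 18978 genes, 0 (0%) had an adjusted p under 0.05 in edgeR's quasi-likelihood test with Benjamini-Hochberg adjustment, and the smallest adjusted p was 0.99956. DESeq2 and limma also called 0 genes. At an unadjusted p under 0.05 edgeR listed 514 genes (2.71%), 258 of them higher in CM1 (1.36%) and 256 lower (1.35%), where chance alone would give about 949. DESeq2 listed 478 and limma 760 at that level. The CM1 and CMC libraries did not overlap for 196 genes (1.03%), with 114 higher in CM1 (0.601%) and 82 lower (0.432%). The median log2 fold change of CM1 over CMC was 0.00 over all genes tested.

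For most genes the interval of the fold change left out large differences. Among the 18573 genes with an average log2 CPM of at least 0, 84.2% had a 95% interval of the fold change that lay within 2-fold in both directions, and 59.2% within 1.5-fold. Counts were also simulated for all 24 libraries, with each gene drawn on its own and the changes put into CM1. The test recovered 92.4% of genes changed 4-fold, 73.1% of those changed 2-fold and 50.7% of those changed 1.5-fold. Shifts shared by many genes of a library were not simulated, so recovery in the real counts was not measured. Folds below 1.5 were not simulated.

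The genes closest to a difference are described next with their values in every library. All were ranked by their p in this comparison, so their values are a description, and the adjusted p of each was at least 0.99956. Dnajb4, which encodes a co-chaperone of the heat shock protein HSP70 (GRCm38 chr3:152178511-152210302, minus strand, protein-coding), had the smallest p of all. Its CPM were 34.3, 34.9, 39.2 and 33.5 in CM1 libraries 1 to 4, against 42.4, 45.6, 46.2, 45.1 and 47.2 in CMC libraries 1 to 5. Every CM1 library lay below every CMC library, and the Ctrl libraries ran from 35.7 over a median of 39.8 to 46.9, across both groups. On the log2 scale the fold change was -0.35 (SE 0.08).

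Among genes lower in CM1, Wee1 followed (chr7:110122046-110143286, plus strand), the kinase that holds the mitotic kinase CDK1 inactive. It had 21.6, 22.4, 29.2 and 21.7 CPM in CM1, against 36.3, 45.1, 32.2, 33.6 and 33.4 CPM in CMC. The groups did not overlap, and CM1 3 was the highest of its group. On the log2 scale the fold change was -0.61 (SE 0.16). Tnfrsf25, which encodes the death receptor DR3 of T cells (chr4:152115934-152120119), averaged 4.73 ± 1.28 CPM in CM1 and 8.39 ± 0.919 CPM in CMC (SD, n = 4 and 5). Mmachc, needed to process vitamin B12 inside cells, averaged 5.31 ± 0.319 CPM in CM1 and 7.36 ± 0.815 CPM in CMC. Neither gene's groups overlapped.

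Omd encodes osteomodulin, a small leucine-rich proteoglycan of the matrix, and had 7.29, 7.15, 7.78 and 6.39 CPM in CM1, against 12.6, 10.5, 11.3, 8.47 and 13.4 CPM in CMC. All CM1 libraries were below all CMC libraries, and the log2 fold change was -0.65 (SE 0.18). Mus81, a nuclease that resolves joined DNA molecules, averaged 16.6 ± 1.96 CPM in CM1 and 20.5 ± 1.57 CPM in CMC without overlap. Uchl4, a ubiquitin hydrolase that has the near-identical relative Uchl3 and sits inside Map2k1, averaged 1.80 ± 0.440 CPM in CM1 and 3.17 ± 0.314 CPM in CMC without overlap. The remaining genes of the 10 lowest by p were non-coding and near or below 5 CPM: Gm14461 (log2 fold change -1.17), Gm22146 (-1.61) and Gm48655 (-1.15). Gm22146 lies inside Fkbp5 on the other strand and Gm48655 inside Ralgapa1, and the libraries carry no strand, so their reads cannot be told from those genes' reads. The same limit touches Wee1 with 1600010M07Rik, Omd with Cenpp and Mus81 with Efemp2, which overlap them.

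Among genes higher in CM1, Pdzd4, which encodes a protein with a PDZ domain (chrX:73793359-73824969, minus strand), had the smallest p. It had 22.9, 20.7, 21.8 and 20.4 CPM in CM1, against 15.6, 17, 17.8, 17.2 and 15.0 CPM in CMC. The groups did not overlap, and Ctrl spanned both, from 14.9 over a median of 18 to 21.1 CPM. On the log2 scale the fold change was 0.38 (SE 0.10). Coq4, which takes part in making coenzyme Q (chr2:29787493-29797935, overlapped by Trub2), averaged 5.66 ± 0.865 CPM in CM1 and 3.80 ± 0.595 CPM in CMC. Its groups did not overlap.

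Ydjc (chr16:17144621-17160701, overlapped by Ccdc116 and Ube2l3) averaged 6.47 ± 0.604 CPM in CM1 and 4.22 ± 0.613 CPM in CMC. Slc6a20b, a transporter of the SLC6 family that resembles Slc6a20a and overlaps Sacm1l, averaged 6.37 ± 0.957 CPM in CM1 and 4.33 ± 0.636 CPM in CMC. Both were without overlap between the groups. The non-coding Gm42439, inside Auts2, and Gm40909 had log2 fold changes of 1.30 and 0.81 with no overlap, at under 3 CPM, and Gm37132 had 0.90 with overlap.

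The other leading genes owed their rank to 1 library or to a wide spread. Ccl4, the chemokine MIP-1β (chr11:83662584-83664683), had 2.62, 2.47, 55.7 and 4.59 CPM in CM1, against 3.59, 1.70, 2.33, 3.02 and 0.950 CPM in CMC. Only CM1 3 and CM1 4 exceeded every CMC library. The log2 fold change of 2.83 (SE 0.76) was 0.49 without CM1 3. Nfkbid, a nuclear regulator of NF-κB, likewise reached 16.1 CPM in CM1 3, against 4.90 to 7.39 CPM in the other CM1 libraries and 3.71 to 6.39 CPM in CMC, and its log2 fold change of 0.87 was 0.38 without CM1 3. Hist1h4m, 1 of many near-identical histone H4 genes, had 10.7, 18.5, 0.415 and 7.06 CPM in CM1, against 0.319 to 0.950 CPM in CMC. Here CM1 3 was the low library, and reads of this gene may belong to its copies.

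**Figure D1:**
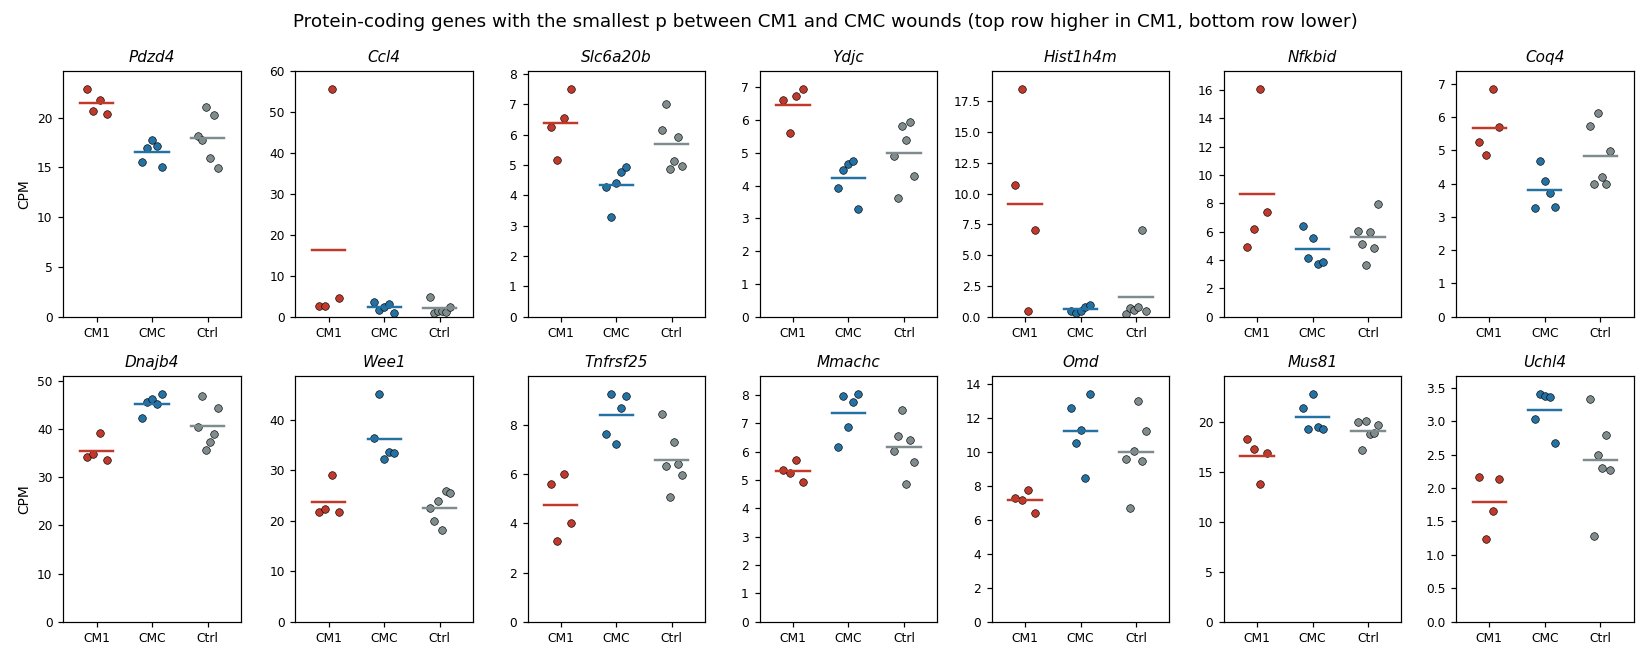
CPM of the protein-coding genes among the 10 with the smallest p in each direction, in CM1, CMC and Ctrl libraries (each point 1 library, bars the group means, linear axes from 0). Pdzd4, Slc6a20b, Ydjc and Coq4 lie higher in CM1 and all 7 genes of the bottom row lower in CM1 without overlap, while CM1 3 at 55.7 CPM carries the mean of Ccl4.

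The next genes are described singly, without a test of what they share. Per1, Per2, Arntl, Nr1d1, Cebpd and Fkbp5 were chosen after their values were seen, and no list of clock or glucocorticoid-responsive genes was examined. Per1, a core component of the circadian clock that glucocorticoid also induces, lies at chr11:69095217-69109960 on the plus strand. Of its 2 promoter windows from RefSeq, 1 (GRCm38.p6, chr11:69098699-69098948, plus strand) is shown because it holds an E-box, a motif through which clock proteins are known to act. That window lies inside the gene span given above, which begins upstream of it. Capitals mark the E-box CACGTG, which reads the same on both strands, and it stands in 6.02% of all 32851 promoter windows of that length.
Per1: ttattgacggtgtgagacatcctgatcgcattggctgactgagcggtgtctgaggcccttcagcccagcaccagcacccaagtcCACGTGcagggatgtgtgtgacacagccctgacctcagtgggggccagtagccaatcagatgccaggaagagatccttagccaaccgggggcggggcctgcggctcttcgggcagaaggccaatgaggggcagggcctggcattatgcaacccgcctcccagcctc
The match is a description of the sequence only.

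Per1 had 67.6, 85.4, 112 and 48.6 CPM in CM1, against 125, 141, 124, 107 and 167 CPM in CMC. Only CM1 3 reached into the range of CMC. All 5 CMC libraries were above the Ctrl libraries, which ran from 63.1 over a median of 87.9 to 104 CPM, and the CM1 libraries straddled Ctrl. On the log2 scale the fold change was -0.76 (SE 0.22). Per2, a relative of Per1, averaged 31.2 ± 4.03 CPM in CM1 and 41.7 ± 8.22 CPM in CMC with overlap. Arntl, the activator of the loop, averaged 20.6 ± 0.973 CPM in CM1 and 18.9 ± 4.12 CPM in CMC, and Nr1d1, its repressor, 54.7 ± 4.58 CPM in CM1 and 47.4 ± 8.22 CPM in CMC. The labels give no hour of tissue collection.

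Cebpd, a transcription factor of the acute phase response (chr16:15887286-15891031), had 18.5, 23.3, 24 and 18.6 CPM in CM1, against 36.5, 69.0, 29.3, 33.3 and 34.1 CPM in CMC. The groups did not overlap, and CMC 2 was far above the rest. All CMC libraries again lay above Ctrl, which ran from 13.9 over a median of 14.6 to 25.8 CPM. The log2 fold change was -0.94 (SE 0.28) with all libraries and -0.66 without CMC 2. Tsc22d3, which encodes the glucocorticoid-induced leucine zipper protein GILZ, had 53.7, 84.3, 103 and 48.7 CPM in CM1, against 111, 159, 90.2, 98.0 and 159 CPM in CMC. Its groups overlapped through CM1 3, and its log2 fold change was -0.77 (SE 0.26). Fkbp5, a co-chaperone of the glucocorticoid receptor, averaged 79.2 ± 4.66 CPM in CM1 and 97.5 ± 12.3 CPM in CMC with overlap.

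Ccn2, a matrix-associated growth factor induced by TGF-β and by the YAP and TEAD pair (chr10:24595442-24598683), had 20.8, 33.3, 41.1 and 23.5 CPM in CM1, against 62.8, 58.2, 81.0, 31.9 and 57.2 CPM in CMC. Only CMC 4 lay among the CM1 values, and the log2 fold change was -0.97 (SE 0.30). Adamts1, a protease that cleaves the proteoglycan versican, had 105, 114, 111 and 94.5 CPM in CM1, against 147, 160, 127, 131 and 143 CPM in CMC. Its groups did not overlap, with a log2 fold change of -0.41 (SE 0.14). Fosb, an immediate early transcription factor, had 0.911, 2.30, 10.8 and 1.79 CPM in CM1, against 10.4, 9.78, 26.3, 2.90 and 6.22 CPM in CMC. Its log2 fold change of -1.48 had an interval from -3.17 to 0.21, and was -2.69 without CM1 3 and -0.89 without CMC 3.

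**Figure D2:**
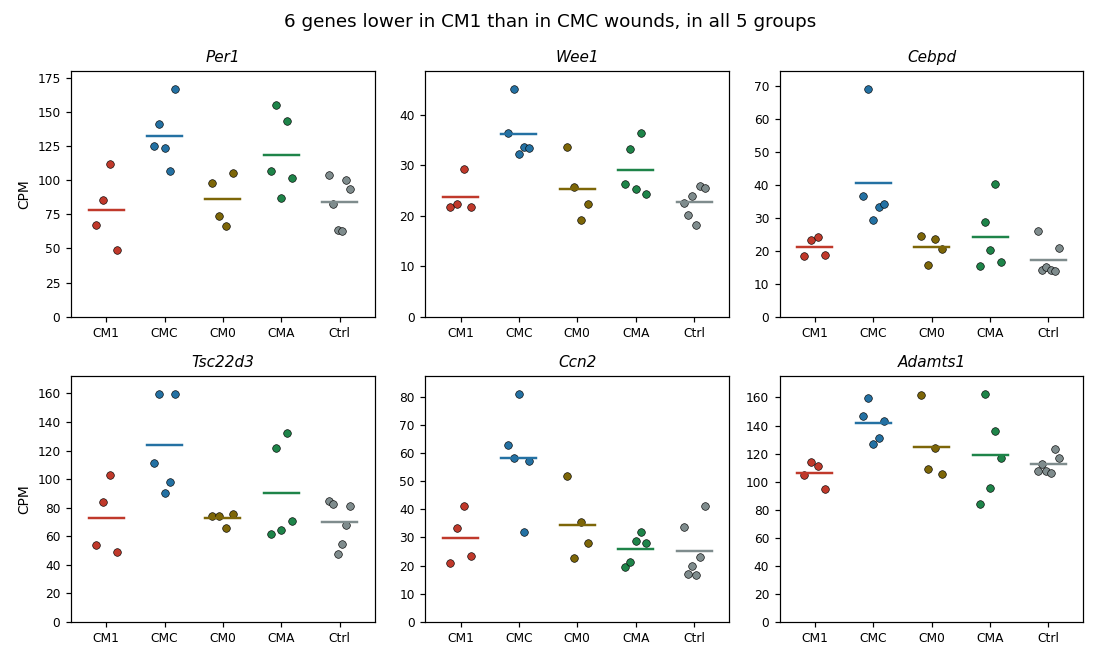
CPM of Per1, Wee1, Cebpd, Tsc22d3, Ccn2 and Adamts1 in every library of the 5 groups (each point 1 library, bars the group means, linear axes from 0), CM0 and CMA being media of M0 and M2a macrophages. For Per1, Wee1 and Cebpd all 5 CMC libraries lie above all 6 Ctrl libraries, whose highest values are 104, 25.8 and 25.8 CPM, and the CM1 libraries lie near Ctrl.

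Genes that mark macrophage states gave no consistent direction. The classical list held 14 tested genes, 7 higher and 7 lower in CM1, with a median log2 fold change of 0.07 beside 0.00 over all genes. Of these 1, Tnf, had an unadjusted p under 0.05, beside 2.71% of all genes, and 1, Gpr18, had groups that did not overlap, with CM1 lower, beside 1.03% of all genes. Without CM1 3 it was 4 of 14 higher, with a median of -0.16 and 0 at that p. The list of alternative, M2a-type activation had 4 of 12 tested genes higher in CM1 (median -0.09), and that of M2c-type deactivation and clearance had 5 of 16 (median -0.09). Slc7a2, an arginine transporter in the M1-type list, averaged 53.1 ± 12.9 CPM in CM1 and 57.9 ± 9.89 CPM in CMC. Stab1, a scavenger receptor, averaged 621 ± 69.1 CPM in CM1 and 618 ± 93.1 CPM in CMC. In tissue RNA, fewer cells of a type and less RNA per cell cannot be told apart, here and for every list that follows.

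Nos2, the enzyme that makes nitric oxide in M1 cells, had a lower mean in CM1 and varied widely within both groups. It had 10.9, 4.19, 22.8 and 19.2 CPM in CM1, against 151, 141, 43.1, 11 and 1.90 CPM in CMC. The CMC values ran from below every CM1 value to above every CM1 value, and Ctrl ran from 1.64 over a median of 5.18 to 161 CPM. The log2 fold change was -2.29 (SE 1.48) with an interval from -5.37 to 0.78. Arg1, the arginase that competes for the same substrate, had 265, 108, 305 and 153 CPM in CM1, against 456, 203, 310, 134 and 44.7 CPM in CMC. Its groups overlapped throughout, and the interval of its log2 fold change of -0.15 ran from -1.88 to 1.59.

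The receptors that M2c cells carry did not separate the groups. Cd163, the scavenger receptor for haemoglobin, had 108, 175, 124 and 126 CPM in CM1, against 115, 285, 104, 169 and 164 CPM in CMC. Its log2 fold change of -0.33 ran from -0.491 to -0.052 when a library was left out. Mertk, which binds dying cells, had 63.1, 64.6, 69.7 and 68.7 CPM in CM1, against 73.4, 71.2, 77.7, 60.4 and 84.6 CPM in CMC. Only CMC 4 kept the Mertk groups from being apart, and the interval of its log2 fold change of -0.14 ran from -0.41 to 0.12. Mrc1, the mannose receptor, averaged 394 ± 79.1 CPM in CM1 and 415 ± 83.4 CPM in CMC. Il10, a cytokine that deactivates macrophages, was low in both groups, with 1.63 ± 0.186 CPM in CM1 and 1.20 ± 0.466 CPM in CMC. Chil3, a lectin of M2a cells, had 9.91, 16.0, 13.4 and 8.18 CPM in CM1, against 5.83, 7.65, 12, 4.29 and 2.25 CPM in CMC, and only CMC 3 entered the CM1 range.

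Il1b, Cxcl2, Tnf, Ccl3 and Hdc had their highest value of the 9 libraries in CM1 3. Il1b had 19.6, 5.01, 199 and 42.4 CPM in CM1, against 28.5, 19.2, 13.6, 14.5 and 0.864 CPM in CMC. CM1 4 also exceeded every CMC library, and the log2 fold change of 2.12 (SE 1.16) was 0.54 without CM1 3. Cxcl2, which draws neutrophils, had 7.97, 8.30, 373 and 28.9 CPM in CM1, against 30.9, 17.2, 15.0, 9.63 and 0.345 CPM in CMC. Without CM1 3 its log2 fold change of 2.85 (SE 1.37) was 0.05. Tnf had 3.19, 3.37, 25.1 and 5.60 CPM in CM1, against 5.27, 2.34, 5.47, 4.64 and 3.20 CPM in CMC, and its log2 fold change of 1.16 was -0.04 without CM1 3.

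Ccl3, which lies beside Ccl4 and resembles it, had 4.67, 6.00, 71.6 and 9.52 CPM in CM1, against 9.09, 5.53, 7.10, 5.10 and 3.28 CPM in CMC, and its log2 fold change of 1.94 was 0.17 without CM1 3. Hdc, which makes histamine in mast cells and other myeloid cells, reached 87.0 CPM in the same library, against 7.32 to 22.4 CPM in the other CM1 libraries and 5.61 to 20.9 CPM in CMC. The log2 fold change of Hdc, 1.4, ran from 0.27 to 1.725 when a library was left out. Ccl2, which draws monocytes, did not follow: it averaged 18.6 ± 7.90 CPM in CM1 and 15.7 ± 7.36 CPM in CMC, with 12.7 CPM in CM1 3. Il6, an inflammatory cytokine chosen after its values were seen, averaged 0.880 ± 0.303 CPM in CM1 and 2.27 ± 1.86 CPM in CMC. Cxcl12, a chemokine of stromal cells, averaged 156 ± 33.5 CPM in CM1 and 134 ± 12.6 CPM in CMC. Of 17 chemokines tested, 11 were higher in CM1 with a median of 0.19, and without CM1 3 it was 9 of 18 with a median of -0.03.

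**Figure D3:**
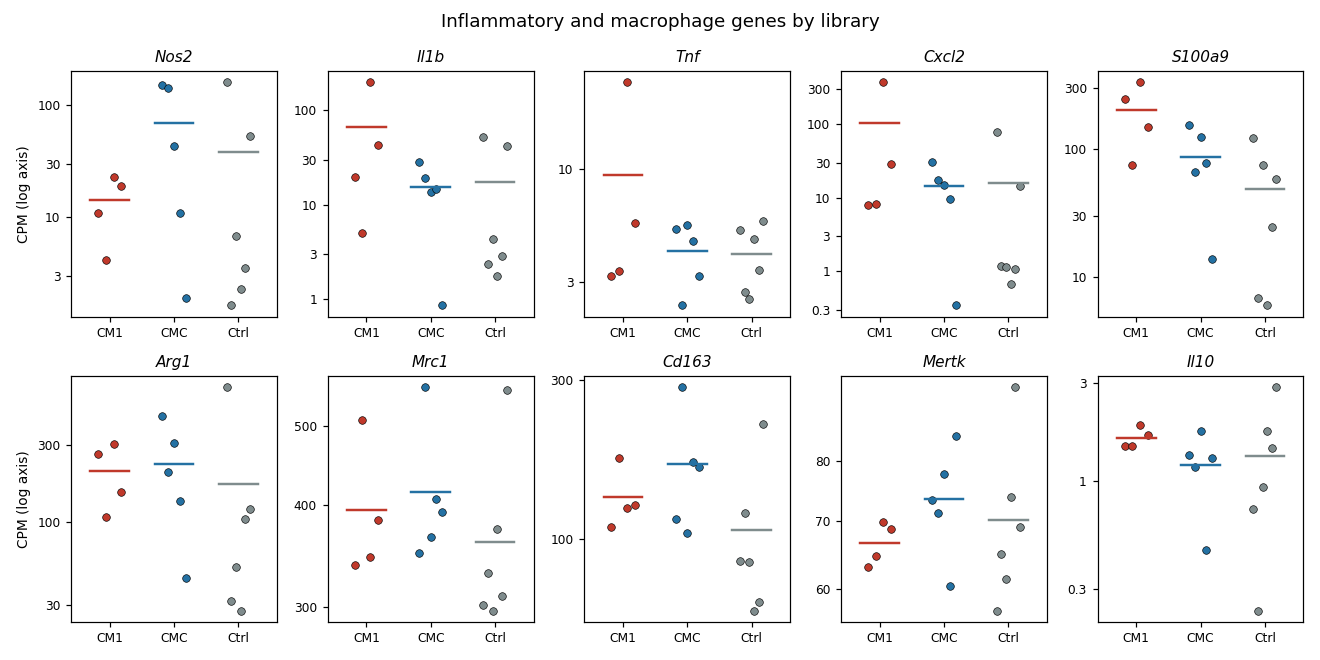
CPM on log axes of inflammatory genes (top row) and of Arg1, macrophage receptors and Il10 (bottom row) in CM1, CMC and Ctrl libraries (each point 1 library, bars the group means). CM1 3 is the highest library for Il1b (199), Tnf (25.1) and Cxcl2 (373), and CMC spans 1.90 to 151 CPM for Nos2.

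Among cell type lists, that of neutrophils was the farthest above 0. Of its 17 tested members 15 were higher in CM1, with a median log2 fold change of 0.76, 2 at an unadjusted p under 0.05 (background 1.36%) and 0 with groups that did not overlap (background 0.601%). The calprotectin subunit S100a9 had 244, 74.7, 333 and 149 CPM in CM1, against 152, 65.7, 123, 78.0 and 13.8 CPM in CMC. The groups overlapped, with CMC 5 lowest. Its log2 fold change of 1.21 had an interval from -0.57 to 2.99. The other subunit S100a8 averaged 141 ± 76.6 CPM in CM1 and 83.7 ± 50.5 CPM in CMC. The granule gene Ngp had 2.51, 0.247, 0.726 and 1.34 CPM in CM1, against 0.224, 0.638, 0.233, 0 and 0 CPM in CMC. The score of the list, the mean log2 CPM of its tested members, was 2.39 to 4.34 in CM1, 1.34 to 3.66 in CMC and 0.88 to 4.07 in Ctrl. Without CM1 3 the median of the list was 0.42, and without CMC 1 it was 1.28. The count at an unadjusted p under 0.05 was 0 without CM1 4, CMC 3, CMC 4 or CMC 5 and with DESeq2, and 5 without CM1 2. The filter used all 24 libraries, so a member could pass it through groups outside this comparison. With the CM1 and CMC libraries alone 15 members were tested and 13 were higher (median 0.75), with 1 at an unadjusted p under 0.05.

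Macrophage markers were close to equal: 4 of 18 were higher in CM1, with a median of -0.11, and without CMC 2 it was 9 of 18 with a median of -0.01. Aif1, which encodes the macrophage protein IBA1, was 1 gene of the 18 with no overlap, beside 0.601% of all genes in that direction, at 10.7, 9.86, 10.7 and 11.7 CPM in CM1, against 8.19, 8.29, 9.19, 8.0 and 9.50 CPM in CMC. Its log2 fold change was 0.31 (SE 0.17). Apoe, the lipid carrier, averaged 2803 ± 350 CPM in CM1 and 2861 ± 535 CPM in CMC. Of 15 monocyte and dendritic cell genes 9 were higher in CM1 (median 0.05). The monocyte receptor Ccr2 among them had 47.1, 69.1, 39.0 and 58.3 CPM in CM1, against 31.2, 35.6, 39.0, 41.5 and 25.9 CPM in CMC, with a log2 fold change of 0.63 (SE 0.28). Cd74, the invariant chain of MHC class II, averaged 324 ± 45.4 CPM in CM1 and 329 ± 32.3 CPM in CMC. Lymphocyte genes were higher for 7 of 12 (median 0.08), and for 10 of 13 without CM1 4 (median 0.20). With the CM1 and CMC libraries alone it was 5 of 9 tested (median 0.01). The T cell adhesion gene Cd2 averaged 1.72 ± 0.523 CPM in CM1 and 1.28 ± 0.30 CPM in CMC. Il2rb, a chain of the IL-2 receptor, averaged 8.43 ± 1.81 CPM in CM1 and 7.64 ± 1.75 CPM in CMC. Mast cell genes were higher for 5 of 10 (median 0.03), and for 10 of 10 without CM1 4 (median 0.15). The mast cell chymase Cma1 averaged 24.1 ± 12.4 CPM in CM1 and 25.9 ± 5.38 CPM in CMC.

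All 16 tested genes of blood endothelium were higher in CM1, by little, with a median of 0.23. Pecam1, the adhesion protein CD31, had 139, 110, 99.4 and 154 CPM in CM1, against 104, 75.8, 102, 120 and 87.5 CPM in CMC. Its groups overlapped, and the log2 fold change was 0.36 (SE 0.18). Sox17, a transcription factor of arterial endothelium, had 9.80, 8.14, 7.57 and 8.18 CPM in CM1, against 5.72, 4.36, 7.80, 6.73 and 6.48 CPM in CMC. Here CM1 3 and CMC 3 overlapped, and it was the 1 gene of the list at an unadjusted p under 0.05, beside 1.36% of all genes in that direction; that count was 0 without CM1 1 or CMC 2 and 4 without CM1 2. Cdh5, the cadherin of endothelial junctions, averaged 122 ± 26.8 CPM in CM1 and 103 ± 21.1 CPM in CMC. The size rested on single libraries: 12 of 16 were higher without CM1 4 (median 0.11) and 14 of 16 without CMC 2 (median 0.15). Of 6 lymphatic genes 1 was higher in CM1 (median -0.06), and 4 without CM1 4 (median 0.12). Flt4, the receptor VEGFR-3, averaged 15.2 ± 1.83 CPM in CM1 and 13.7 ± 2.81 CPM in CMC. Pdpn, the membrane protein podoplanin, averaged 70.1 ± 15.4 CPM in CM1 and 77.4 ± 30 CPM in CMC. Vegfa, the main growth factor of vessels, averaged 82.3 ± 23.8 CPM in CM1 and 103 ± 19.5 CPM in CMC.

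In the epidermis, wound-edge keratinocyte genes were higher in CM1 for 14 of 17 tested (median 0.29), with 0 at an unadjusted p under 0.05 and 0 without overlap, beside 1.36% and 0.601% of all genes in that direction. Krt16, a keratin of migrating epidermis, averaged 1113 ± 398 CPM in CM1 and 907 ± 479 CPM in CMC, and Krt6a averaged 845 ± 308 CPM in CM1 and 733 ± 408 CPM in CMC. Its near copy Krt6b averaged 1511 ± 705 CPM in CM1 and 1219 ± 847 CPM in CMC. The protease inhibitor Serpinb3a had 6.15, 6.33, 9.13 and 3.70 CPM in CM1, against 6.73, 0.638, 2.68, 2.78 and 1.30 CPM in CMC. Only CMC 1 came into the range of CM1. The wound-edge median was 0.10 without CMC 2 and 0.61 without CMC 1. Cornified keratinocyte genes were higher for 16 of 20 (median 0.20), for 12 of 20 without CM1 3 (median 0.03) and for 11 of 20 without CMC 2 (median 0.08). Basal genes were split 6 and 6 (median 0.00), and 9 of 12 were higher without CM1 4 (median 0.14). Sfn, the epithelial protein 14-3-3σ, averaged 316 ± 73.7 CPM in CM1 and 265 ± 66.8 CPM in CMC. Krt1, the partner of Krt10, averaged 2741 ± 667 CPM in CM1 and 2055 ± 680 CPM in CMC. The differentiation keratin Krt10 averaged 1643 ± 557 CPM in CM1 and 1245 ± 334 CPM in CMC, and the basal keratin Krt14 averaged 3148 ± 824 CPM in CM1 and 2638 ± 1022 CPM in CMC. Krt2, a suprabasal keratin, was instead lower in CM1 on average, with 28.5, 15.0, 55.0 and 9.19 CPM in CM1, against 50.8, 89.2, 39.9, 70.8 and 78.3 CPM in CMC. Only CM1 3 overlapped with CMC, and the log2 fold change was -1.29 (SE 0.52).

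**Figure D4:**
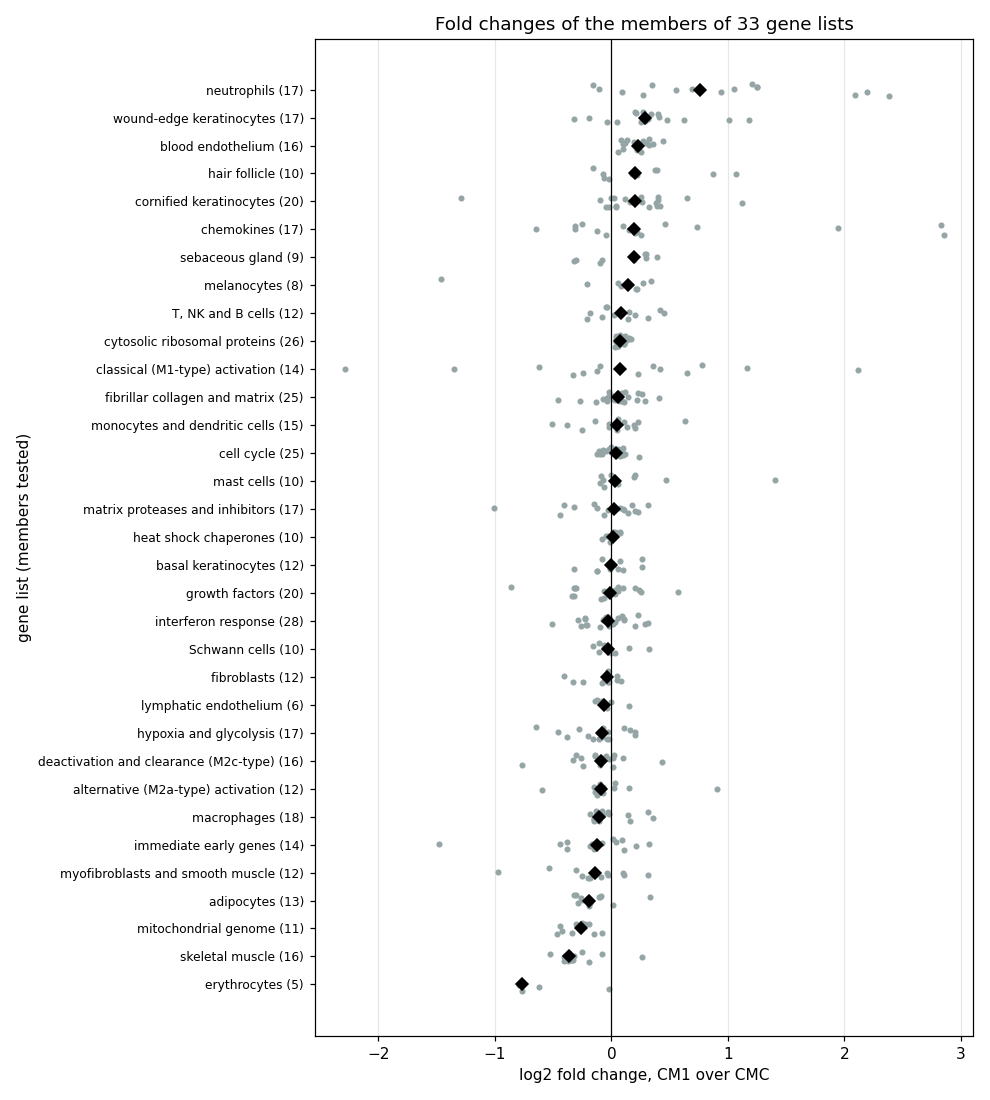
Log2 fold changes of CM1 over CMC for the tested members of 33 gene lists (grey points, 1 gene each; black diamonds, list medians; number tested in brackets). Medians run from -0.77 for erythrocyte genes to 0.76 for neutrophil genes, on either side of the median of 0.00 over all genes.

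The direction of the matrix genes depended on 1 library. Of 25 collagen and matrix genes 17 were higher in CM1 with a median of 0.06, and without CM1 4 it was 7 of 25 with a median of -0.13. Col1a1, a chain of type I collagen, had 27786, 25100, 20612 and 40273 CPM in CM1, against 28961, 22979, 27776, 27474 and 28070 CPM in CMC. CM1 4 was the highest and CM1 3 the lowest of all 9. Col3a1 had 28070, 25655, 24593 and 45663 CPM in CM1, against 32770, 30324, 25474, 29668 and 30804 CPM in CMC. Without CM1 4 the log2 fold changes of 0.07 and 0.06 were -0.14 for Col1a1 and -0.19 for Col3a1. Postn, the matrix protein periostin, averaged 5072 ± 1578 CPM in CM1 and 4331 ± 438 CPM in CMC. Acta2, the actin of myofibroblasts, averaged 183 ± 40.2 CPM in CM1 and 170 ± 24.2 CPM in CMC. Fibroblast genes were higher for 3 of 12 (median -0.04), for 1 of 12 without CM1 4 (median -0.18) and for 8 of 12 without CMC 2 (median 0.06). Fn1, the matrix protein fibronectin, averaged 3027 ± 1139 CPM in CM1 and 3582 ± 1010 CPM in CMC. Twist2, a transcription factor of dermal fibroblasts, averaged 10.1 ± 0.987 CPM in CM1 and 13.4 ± 1.99 CPM in CMC. Matrix proteases and their inhibitors were higher for 9 of 17 (median 0.02), and for 5 of 17 without CM1 4 (median -0.05). Mmp2, a gelatinase, averaged 1176 ± 367 CPM in CM1 and 1035 ± 176 CPM in CMC. Smooth muscle and myofibroblast genes were higher for 3 of 12 (median -0.14), and the tropomyosin Tpm2 averaged 299.8 ± 101 CPM in CM1 and 357 ± 131 CPM in CMC. Growth factors were split 10 and 10 (median -0.01), and Igf1, an insulin-like growth factor, averaged 270 ± 31.5 CPM in CM1 and 259 ± 39.1 CPM in CMC. Pdgfc, a growth factor of fibroblasts, averaged 34.0 ± 3.56 CPM in CM1 and 42.0 ± 5.25 CPM in CMC.

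All 11 tested transcripts of the mitochondrial genome were lower in CM1, with a median log2 fold change of -0.26. Of these 6 had an unadjusted p under 0.05, beside 1.35% of all genes in that direction. Transcripts of 1 genome in the same libraries need not vary independently, so the 6 are not separate results. Their score was 6.10, 6.23, 6.08 and 6.23 in CM1, against 6.25, 6.52, 6.33, 6.53 and 6.58 in CMC, and 6.27 to 6.66 in Ctrl. The CM1 scores were below those of CMC and Ctrl, though CM1 2, CM1 4 and CMC 1 were nearly level. mt-Nd1, a subunit of complex I, averaged 598 ± 39.3 CPM in CM1 and 711 ± 67.4 CPM in CMC, with a log2 fold change of -0.25 (SE 0.10). mt-Co2, a subunit of the oxidase, was 1 gene of the list without overlap, beside 0.432% of all genes in that direction, at 7.37 ± 0.695 CPM in CM1 and 9.34 ± 0.732 CPM in CMC, and mt-Co1 averaged 2968 ± 385 CPM in CM1 and 3295 ± 489 CPM in CMC. The count at an unadjusted p under 0.05 was 1 without CMC 4 and 2 without CM1 1, CM1 3 or CMC 5, and the median stayed between -0.32 and -0.21 when any 1 library was left out. Mitochondrial genes share sequence with nuclear copies, which the counting may divide. As a share of all counts they took 0.793% to 0.863% in CM1 and 0.862% to 1.15% in CMC.

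Muscle and blood genes were lower in CM1 as well. Of 16 skeletal muscle genes 15 were lower in CM1 (median -0.36), with 0 at an unadjusted p under 0.05, and all 5 erythrocyte genes were lower (median -0.77). Ttn, the giant sarcomere protein, had 5028, 7302, 10077 and 4873 CPM in CM1, against 3340, 12192, 4414, 12039 and 11722 CPM in CMC, and the CMC values formed a low and a high set. Myh1, a fast muscle myosin, averaged 961 ± 477 CPM in CM1 and 1389 ± 868 CPM in CMC. Hbb-bs, an adult β-globin, had 39.5, 53.7, 65.2 and 44.0 CPM in CM1, against 53.3, 114, 56.0, 87.1 and 121 CPM in CMC. The globin copies share reads, and the only other tested gene of the list, Alas2, had a log2 fold change of -0.02. Without CM1 2, CMC 2, CMC 4 or CMC 5, 4 of 5 erythrocyte genes were lower (medians from -0.81 to -0.62). At an unadjusted p under 0.05 there was 1, beside 1.35% of all genes in that direction. That count was 0 without CM1 1, CM1 2, CM1 4, CMC 2, CMC 4 or CMC 5. Of 13 adipocyte genes 11 were lower in CM1 (median -0.19), but without CM1 4 it was 9 that were higher (median 0.06), and without CM1 2 all 13 were lower (median -0.49). Lpl, a lipase that feeds fat to cells, averaged 976 ± 350.4 CPM in CM1 and 1110 ± 248 CPM in CMC. The adipokine Adipoq averaged 92.1 ± 51.2 CPM in CM1 and 115 ± 34.6 CPM in CMC. Its log2 fold change of -0.32 ran from -0.655 to -0.005 when a library was left out. The muscle median was -0.58 without CM1 3, -0.21 without CMC 2 and -0.20 without CMC 4. Whether these values follow how much muscle, blood and fat a sample held was not tested. The part of these lists in the mitochondrial values was not tested either.

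**Figure D5:**
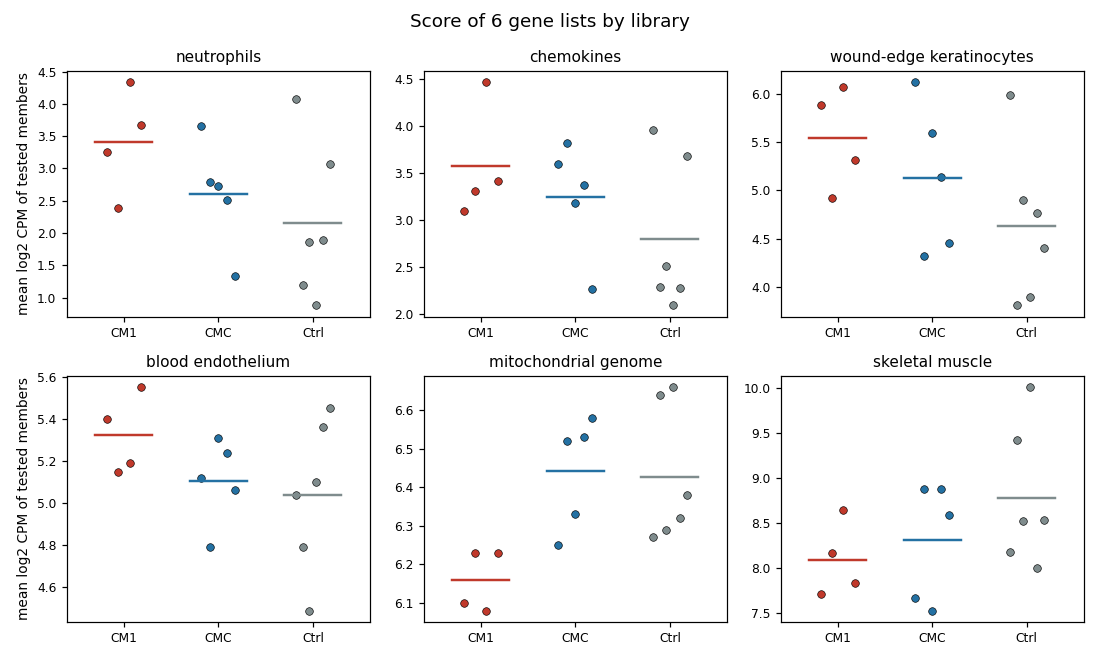
Score of 6 gene lists by library (mean log2 CPM of tested members) in CM1, CMC and Ctrl wounds (each point 1 library, bars the group means, axes not from 0). The CM1 scores of the mitochondrial genome, 6.08 to 6.23, lie below those of CMC, 6.25 to 6.58, while the other 5 lists overlap.

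Of the lists of general cell state, all 26 cytosolic ribosomal protein genes were higher in CM1 by a median of 0.07, and without CM1 3 it was 17 of 26 with a median of 0.01. Rpl14, a protein of the large subunit, averaged 286 ± 21 CPM in CM1 and 254 ± 23 CPM in CMC. Rplp0, of the ribosomal stalk, averaged 1001 ± 159 CPM in CM1 and 928 ± 103 CPM in CMC. Cell cycle genes were higher for 15 of 25 (median 0.04), and for 9 of 25 without CM1 1 or without CM1 2 (medians -0.05 and -0.02), while the proliferation marker Mki67 averaged 194 ± 34.3 CPM in CM1 and 192 ± 15.2 CPM in CMC. Mcm3, a subunit of the replicative helicase, averaged 36.5 ± 7.71 CPM in CM1 and 31 ± 3.95 CPM in CMC. Interferon-response genes were higher for 10 of 28 (median -0.03), for 6 of 28 without CM1 3 (median -0.12) and for 19 of 28 without CM1 4 (median 0.05). Irgm1, an interferon-induced GTPase, averaged 20.9 ± 3.50 CPM in CM1 and 24.5 ± 4.30 CPM in CMC. Tap1, a peptide transporter, averaged 55 ± 19.1 CPM in CM1 and 51.9 ± 4.67 CPM in CMC. Heat shock chaperones were higher for 6 of 10 (median 0.01), and for 5 of 10 without CM1 3 (median -0.01). Hspe1, a mitochondrial chaperone, averaged 34 ± 1.78 CPM in CM1 and 32.4 ± 3.64 CPM in CMC. Hspa8, a constitutive HSP70, averaged 659 ± 21 CPM in CM1 and 654 ± 41.8 CPM in CMC. Hypoxia and glycolysis genes were higher for 4 of 17 (median -0.08), and for 9 of 17 without CM1 2 (median 0.03). Pkm, which encodes pyruvate kinase, averaged 833 ± 124 CPM in CM1 and 850.02 ± 132 CPM in CMC. Hk2, the hexokinase that starts glycolysis, averaged 87.5 ± 19.9 CPM in CM1 and 120 ± 13.1 CPM in CMC. Immediate early genes were higher for 6 of 14 (median -0.12), for 0 of 14 without CM1 3 (median -0.28) and for 8 of 14 without CMC 3 (median 0.09). Jun, a subunit of AP-1, averaged 129 ± 18.4 CPM in CM1 and 143 ± 19 CPM in CMC.

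Skin appendages and nerve were also examined. Hair follicle genes were higher for 6 of 10 (median 0.20), for 4 of 10 without CMC 2 (median -0.09) and for 10 of 10 without CMC 5 (median 1.32). The filter used all 24 libraries, so a gene could pass it through groups outside this comparison. With the CM1 and CMC libraries alone 8 hair follicle genes were tested, and 4 were higher (median 0.09). The hair keratin Krt83 was under 1 CPM in all 9 libraries. Tchh, which encodes the hair sheath protein trichohyalin, had 26.3, 20.6, 10.4 and 11.7 CPM in CM1, against 11.9, 4.36, 7.33, 9.28 and 53.0 CPM in CMC, while Ctrl reached 3412 CPM in 1 library. Sebaceous gland genes were higher for 5 of 9 (median 0.19), and for 4 of 9 without CM1 2 (median -0.02). Krt79, a keratin of the gland duct, averaged 53 ± 19.6 CPM in CM1 and 40.5 ± 6.35 CPM in CMC. Plin2, which coats lipid droplets, had 354, 782, 358 and 341 CPM in CM1, against 549, 512, 643, 244 and 476 CPM in CMC. Melanocyte genes were higher for 6 of 8 (median 0.14). With the CM1 and CMC libraries alone only 4 passed the filter, and 4 were higher (median 0.14). The pigment genes Oca2 and Pmel averaged 0.134 ± 0.218 and 7.44 ± 1.21 CPM in CM1, against 0.349 ± 0.350 and 5.81 ± 2.21 CPM in CMC. Schwann cell genes were higher for 4 of 10 (median -0.03), and for 7 of 10 without CM1 3 (median 0.09). Mbp, a myelin protein, averaged 52.5 ± 2.69 CPM in CM1 and 52.6 ± 8.26 CPM in CMC. Gfra3, a receptor for artemin, averaged 0.809 ± 0.297 CPM in CM1 and 0.650 ± 0.260 CPM in CMC.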

How the data were processed

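Total RNA from frozen day-10 wounds was depleted of ribosomal RNA, and libraries were made with a kit that does not mark strand, per the labels' protocols. Per the submitters' processing notes bcl2fastq 2.17, FastQC, cutadapt, STAR, featureCounts and DESeq2 were used with GRCm38. The authors deposited raw counts per gene, 1 table of 54232 genes per library, and these counts were used as deposited. Symbols and coordinates are from GENCODE M21 (54079 matched).

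Genes were filtered with filterByExpr and scaled by TMM, and a robust edgeR 4.0.16 quasi-likelihood model with 1 term per group was fitted to all 24 libraries in R 4.3.3. The contrast was CM1 minus CMC, with Benjamini-Hochberg adjustment over 18978 genes and a threshold of 0.05. CPM are TMM-scaled, ± is an SD, and p-values beside genes are unadjusted unless called adjusted. DESeq2 1.42.0 and limma 3.58.1 were alternatives. The test was tried on simulated counts of 18716 genes with 200 changed, giving 12 false calls. Members and the 33 gene lists (524 entries, 523 matched, 490 tested) were chosen with earlier results of these data known.

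Genes were named by rule: the 10 smallest p in each direction with average log2 CPM of at least 0, a panel of 24 genes, and in each list the member of smallest p and of highest CPM. Further genes were chosen after their values were seen: Per1, Cebpd, Per2, Arntl, Nr1d1, Fkbp5, and the list members Gpr18, mt-Nd1 and Il6. A gene's count can include reads of an overlapping gene. Promoter windows are from RefSeq. Of Per1, Wee1 and Cebpd only Per1 had windows there, so the promoters of Wee1 and Cebpd were not searched for the E-box.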

Additional observations from a re-analysis of the deposited data

Results flagged for a closer look

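Among 286 groups of values examined, 17 had 1 library far from the rest of its group. Chance marks about 1 in 20, so the count is near what chance alone would give, and the cases below are a description. In CM1 3 this was the case for Ccl4 (55.7 CPM against 2.47 to 4.59 in the other CM1 libraries), Ccl3 (71.6 against 4.67 to 9.52), Cxcl2 (373 against 7.97 to 28.9) and Tnf (25.1 against 3.19 to 5.60). The same library was apart for Fosb (10.8 against 0.911 to 2.30), Wee1 (29.2 against 21.6 to 22.4), Irgm1, an interferon-induced GTPase (26.1 against 18.8 to 19.7), and Fkbp5 (86.2 against 76.6 to 77.2). In CM1 4 it was Col3a1 (45663 CPM against 24593 to 28070) and the score of the collagen and matrix list (10.59 against 10.05 to 10.14). CMC 2 was apart for Cebpd (69.0 against 29.3 to 36.5), Mrc1 (558 against 350 to 407) and Gm14461 (7.23 against 3.93 to 4.65), and was low for Col1a1 (22979 against 27474 to 28961). CMC 5 was apart for Tchh (53.0 against 4.36 to 11.9) and Oca2 (0.950 against 0.106 to 0.348), and CM1 2 for Plin2 (782 against 341 to 358). Whether these libraries stand apart beyond chance was not tested, nor was any cause.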

How the results depend on the processing

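Over 19 alternatives 0 genes were called in any, and of 110 named genes 22 changed direction in at least 1, as did the medians of 20 of 33 lists. The 1 CPM filter planned as the stricter one kept more genes (19280), so a 5 CPM filter and a fit without Ctrl 3 and Ctrl 4 were added after seeing the data. Genes without overlap numbered 335 with no filter, 120 with the 5 CPM filter and 336 to 602 when a library was left out, since fewer libraries overlap less often. Genes at an unadjusted p under 0.05 numbered 1158 with no filter (38762 genes) and 316 with the 5 CPM filter (13469 genes). Leaving out a library turned the log2 fold change of Arg1 (-0.41 to 0.26), Tnf (-0.039 to 1.43), Mrc1 (-0.225 to 0.056), Ccl2 (-0.078 to 0.565), Col1a1 (-0.14 to 0.20), Col3a1 (-0.19 to 0.16), Acta2 (-0.014 to 0.239), Mki67 (-0.08 to 0.125), Tchh (-0.292 to 1.07), Apoe (-0.123 to 0.072), Cd74 (-0.095 to 0.063), Il2rb (-0.011 to 0.241), Cma1 (-0.473 to 0.140), Pdpn (-0.307 to 0.049), Plin2 (-0.471 to 0.044), Mbp (-0.058 to 0.080), Stab1 (-0.066 to 0.101), Tap1 (-0.153 to 0.255), Mmp2 (-0.054 to 0.284), Rplp0 (-0.004 to 0.171), Pkm (-0.132 to 0.042) and Hspa8 (-0.012 to 0.038). With limma Arg1 was 0.22, Col1a1 -0.005, Col3a1 -0.039, Cd74 0.012, Mbp 0.025 and Tchh 0.53, and with DESeq2 Tchh was 0.004. The cause was not tested. No paired analysis was possible because the labels give no replicate numbers. Where an interval is wide, as for Nos2, neither a difference nor its absence can be stated.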
